A study of Mus musculus with 15 samples.

Results

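The 9 genes described here (Dbp, Tef, Hlf, Nfil3, Bhlhe40, Bhlhe41, Ciart, Rora and Usp2) are clock-controlled regulators that carry time-of-day information from the core circadian clock to liver metabolism. They were taken by name from a table of 21702 protein-coding genes, and all 9 passed the filter on low counts that left 12172 genes for testing. Usp2 is the exception among these regulators of transcription, since it encodes a deubiquitinase and is grouped with them as a clock output.

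In the core clock, the activators CLOCK (or NPAS2) and BMAL1, the product of Arntl, bind E-box elements and switch on genes that include the PER and CRY repressors, and the nuclear receptors REV-ERB and ROR act in opposite directions on Arntl itself. The PAR bZIP factors DBP, TEF and HLF are driven by this loop and activate genes through D-box elements, where NFIL3 (also called E4BP4) acts as a repressor. BHLHE40 and BHLHE41 (DEC1 and DEC2) repress through E-boxes, CIART represses CLOCK and BMAL1, and in liver the levels of many of these transcripts swing widely within each day.

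RNA was sequenced from pieces of whole liver of wild-type C57BL/6 female mice (C57BL/6N in the study's methods) in 5 groups of 3, all injected through the tail vein with an adeno-associated virus of serotype 8 (AAV8) before mating. The control groups received the empty vector and were non-pregnant (NP AAV8-null) or pregnant at 8 or 16 days post-coitum (8 dpc AAV8-null and 16 dpc AAV8-null), and the other groups received a virus carrying mouse p21 (8 dpc AAV8-p21 and 16 dpc AAV8-p21). The study used p21, an inhibitor of cyclin-dependent kinases, to hold back hepatocyte proliferation during pregnancy, with the TBG promoter restricting expression to hepatocytes, and no non-pregnant AAV8-p21 group was analysed here. The hour of day at which the livers were taken, and whether the mice had been fed, are not given in the sources used here, so neither can be told apart from group or from mouse.

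Total counts lay between 12280709 and 17615185 per liver. Levels are given as CPM, read counts scaled to a common library size with TMM factors. The p21 gene Cdkn1a, which the virus supplies, lay between 347 and 1664 CPM in the 6 AAV8-p21 livers and between 3.29 and 127 CPM in the 9 AAV8-null livers. Each AAV8-p21 group lay above the AAV8-null group of its stage without overlap. Even so, the quasi-likelihood test of edgeR used below did not call Cdkn1a at either stage. Its log2 fold change was 3.83 at 16 dpc (adjusted p = 0.0619) and 4.40 at 8 dpc (adjusted p = 0.0873). A gene that was not called between the viruses may therefore still differ. Hepatocyte markers (Alb, Ttr, Apoa1, Hnf4a and Cps1) were found in every group, and no marker of the 8 cell type lists was at 0 in a whole group. The 3 columns of the 16 dpc AAV8-p21 group are numbered 1, 3 and 4 in the count table, and these livers are named by those numbers. Nothing in the labels says more on how the mice of a group were related, so p-values measure the spread among these livers. In bulk liver, a lower level can mean fewer expressing cells or less RNA per cell, and these cannot be told apart.

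All members but Bhlhe40 had an entry in the RefSeq promoter table (GRCm38.p6), which gives 250 bases before and 50 bases after each start. Each window was searched on both strands for the E-box CACGTG, a palindrome bound by CLOCK and BMAL1 and by the BHLHE factors, for the D-box as TTATGTAA or TTACGTAA, and for the core of the ROR element, TAGGTCA. The letters of these motifs do not overlap one another. Of the 9 windows of 8 members, 4 held an E-box and belonged to Ciart, Bhlhe41 and both starts of Tef, against 7.15% of all 32851 windows in the table. The ROR core was found in 1 window, that of Nfil3, against 2.61% of all windows, and the D-box in 0 windows of members, against 1.06% of all. These are matches of letters in a short window, and binding was not measured. Of the 4 members with a match, 3 are shown up to the start site, chosen after their values were seen: Ciart with the most E-boxes, Tef as the PAR bZIP factor with a match, and Nfil3 with the ROR core. They are the window of Ciart on the minus strand of chr3:95882229-95882478 with 3 E-boxes, that of Tef on the plus strand of chr15:81811164-81811413 with 1 E-box, and that of Nfil3 on the minus strand of chr13:52981040-52981289 with 1 ROR core on its reverse strand. Capitals mark the motifs.
Ciart: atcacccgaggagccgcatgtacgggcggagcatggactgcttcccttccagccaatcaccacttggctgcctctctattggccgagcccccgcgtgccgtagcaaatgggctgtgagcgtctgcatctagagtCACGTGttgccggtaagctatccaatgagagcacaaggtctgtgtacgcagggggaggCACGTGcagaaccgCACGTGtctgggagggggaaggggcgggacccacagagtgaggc
Tef: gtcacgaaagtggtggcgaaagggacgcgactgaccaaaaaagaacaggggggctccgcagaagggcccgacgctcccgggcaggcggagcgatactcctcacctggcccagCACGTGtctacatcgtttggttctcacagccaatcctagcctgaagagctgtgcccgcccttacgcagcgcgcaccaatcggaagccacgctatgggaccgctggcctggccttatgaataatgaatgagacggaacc
Nfil3: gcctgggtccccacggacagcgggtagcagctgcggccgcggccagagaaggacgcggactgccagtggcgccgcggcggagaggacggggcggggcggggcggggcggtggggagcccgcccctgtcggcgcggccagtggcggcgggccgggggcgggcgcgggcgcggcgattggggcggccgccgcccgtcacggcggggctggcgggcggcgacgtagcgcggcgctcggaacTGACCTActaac

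The level of the members differed widely per length of transcript. Averaged over the 15 livers, Bhlhe40 stood at 20.4 CPM per kb of exon, Nfil3 at 16.7, Tef at 11.9 and Dbp at 11.1 CPM per kb. Hlf followed at 4.93, Usp2 at 4.45 and Rora at 4.06 CPM per kb, and Ciart (1.47) and Bhlhe41 (0.219) were the scarcest. The order changed between livers, because 5 members varied much more within groups than most genes. Within groups, the SD of log2(CPM + 0.5) was 1.83 for Dbp, 1.27 for Ciart, 1.16 for Usp2, 1.08 for Nfil3 and 1.03 for Tef, against a median of 0.32 over the 12172 genes. By this measure Dbp was above 99.9% of the genes tested and Tef above 98.7%. Hlf (0.37) and Rora (0.44) were closer to the typical gene. The following paragraphs take the members by role.

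**Figure D1:**
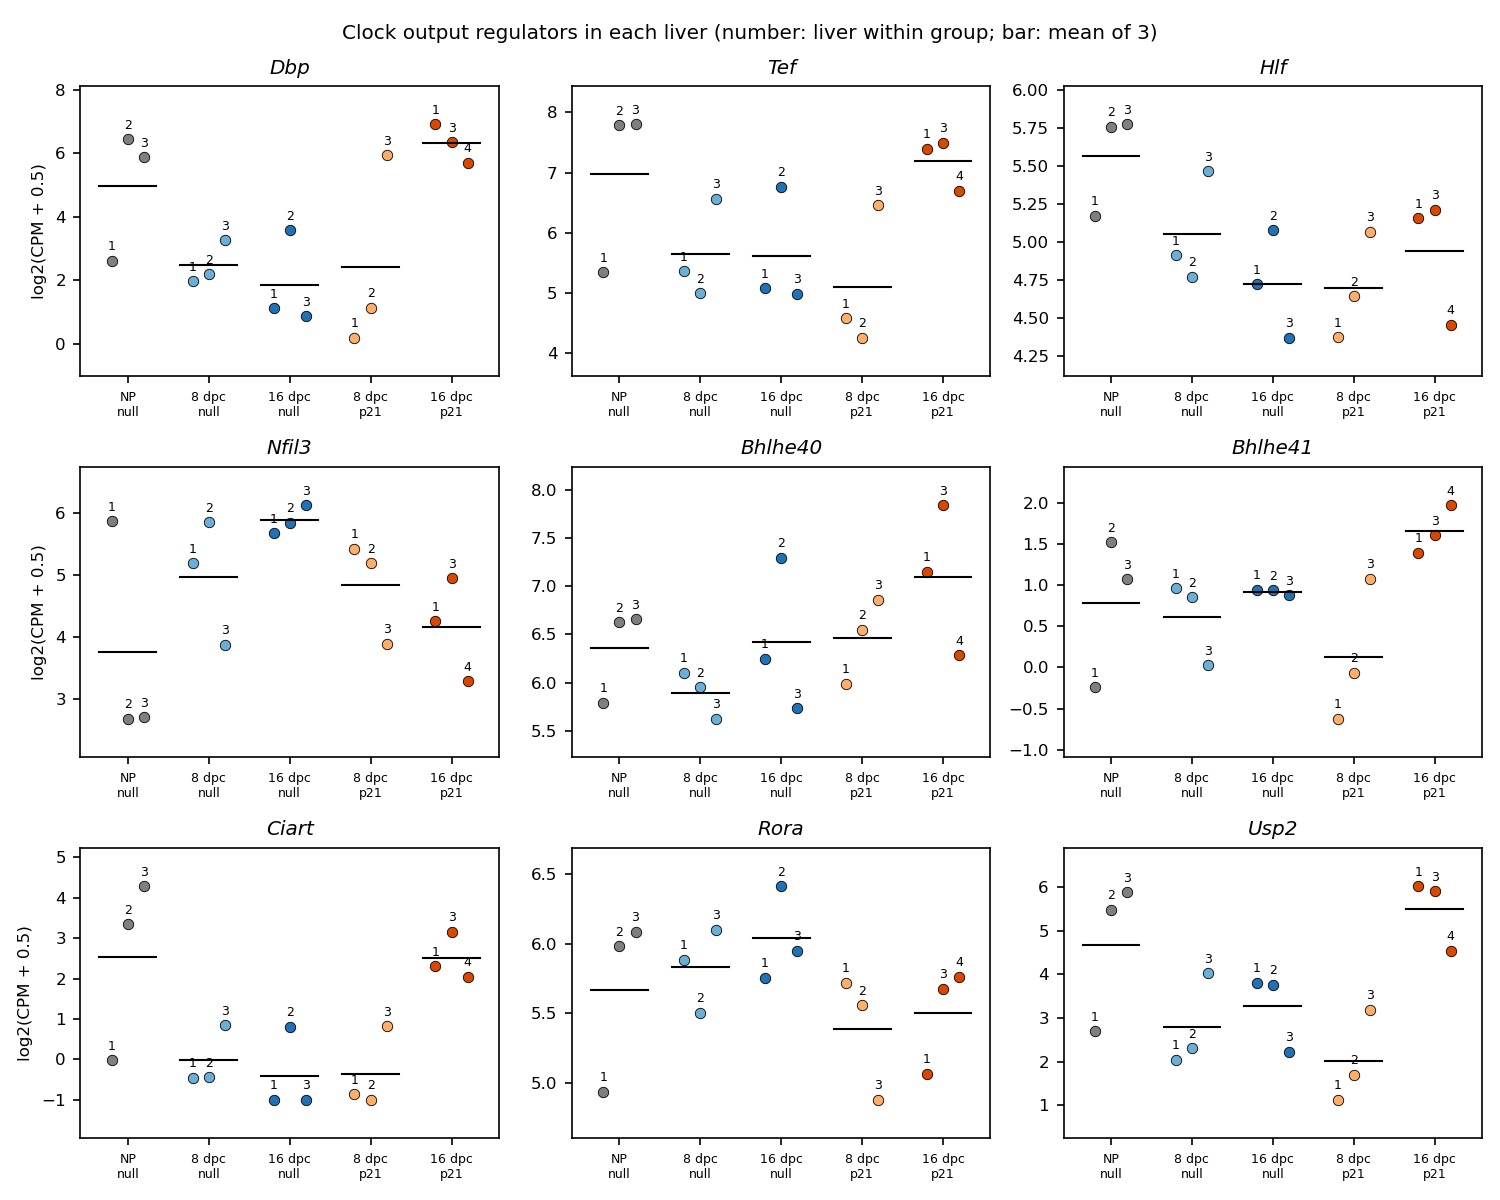
Level of each member in each of the 15 livers as log2(CPM + 0.5), by group, with the liver number above each point and the mean of the 3 values on this scale as a bar. NP liver 1 and 8 dpc AAV8-p21 liver 3 stood away from the other 2 livers of their groups for Dbp, Tef, Nfil3 and Ciart.

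Dbp (chr7:45705088-45710203, plus strand, GENCODE M21 on GRCm38), a PAR bZIP factor with a strong daily rhythm in liver, ranged from 0.642 to 119.9 CPM, the widest range of the 9 genes on the log2(CPM + 0.5) scale. In NP AAV8-null livers it lay at 5.68, 86.3 and 58.0 CPM in livers 1, 2 and 3. The 8 dpc AAV8-null livers had 3.43, 4.11 and 9.10 CPM and the 16 dpc AAV8-null livers 1.69, 11.4 and 1.33 CPM. Every pregnant AAV8-null liver was thus far below NP livers 2 and 3, whereas NP liver 1 lay among them. With AAV8-p21, Dbp measured 0.642, 1.71 and 61.4 CPM at 8 dpc against 119.9, 81.0 and 51.8 CPM at 16 dpc. No liver had a value between 11.4 and 51.8 CPM, so the 15 livers fell into 9 low and 6 high ones, and both kinds occurred in the NP and in the 8 dpc AAV8-p21 group. Exons of Dbp share 539 bases with exons of Sphk2 on the opposite strand, and whether counting used the strand is not given in the sources used here. Sphk2 lay between 13.8 and 59.3 CPM, with 59.3, 50.6 and 37.6 CPM in the 8 dpc AAV8-null livers and 17.4, 13.8 and 46.5 CPM in the 16 dpc AAV8-p21 livers, so it did not follow Dbp there.

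Tef (chr15:81802421-81826863, plus strand), a PAR bZIP factor with a weaker rhythm, had its high and low values in much the same livers, over a range that was smaller on the log2 scale. It lay at 40.2, 219.6 and 222 CPM in NP, at 40.5, 31.5 and 94.3 CPM in 8 dpc AAV8-null and at 33.4, 108 and 31.2 CPM in 16 dpc AAV8-null livers. Its AAV8-p21 values were 23.5, 18.6 and 87.5 CPM at 8 dpc and 167.5, 179.7 and 103.5 CPM at 16 dpc. The 16 dpc AAV8-p21 livers overlapped with 16 dpc AAV8-null only through liver 2 of the latter, which also had the highest Dbp of its group. Hlf (chr11:90336536-90390895, minus strand), the third PAR bZIP factor, varied least of the 3. Its values were 35.6, 53.5 and 54.1 CPM in NP, 29.6, 26.9 and 43.7 CPM in 8 dpc AAV8-null, and 25.9, 33.2 and 20.2 CPM in 16 dpc AAV8-null livers. With AAV8-p21 they were 20.3, 24.5 and 33.1 CPM at 8 dpc and 35.2, 36.6 and 21.5 CPM at 16 dpc. All 3 NP livers were above all 3 of the 16 dpc AAV8-null livers.

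Nfil3 (chr13:52967209-52981073, minus strand), the repressor at D-boxes, ran against Dbp and Tef in single livers of the NP and 8 dpc groups. This did not hold within 16 dpc AAV8-p21, where liver 4 had the least Dbp (51.8 CPM), Tef (103.5 CPM) and Nfil3 (9.25 CPM) of its group. In NP, Nfil3 was at 58.2, 5.91 and 6.01 CPM, so the NP liver with little Dbp had the most Nfil3 of its group. It reached 36.0, 57.5 and 14.2 CPM in 8 dpc AAV8-null and 50.8, 57.2 and 69.3 CPM in 16 dpc AAV8-null livers. AAV8-p21 livers had 42.6, 36.1 and 14.4 CPM at 8 dpc against 18.6, 30.4 and 9.25 CPM at 16 dpc. Each of the latter 3 had less Nfil3 than any AAV8-null liver of that stage.

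Set against each other per kb of exon, the sum of Dbp, Tef and Hlf was 22.2 and 18.8 times Nfil3 in NP livers 2 and 3 and 0.429 times Nfil3 in NP liver 1. The ratio was 0.603, 0.331 and 3.08 in 8 dpc AAV8-null and 0.347, 0.798 and 0.217 in 16 dpc AAV8-null livers. It was 0.297, 0.371 and 5.16 in 8 dpc AAV8-p21 and 7.27, 3.69 and 7.38 in 16 dpc AAV8-p21 livers. The transcripts of the activators thus exceeded that of their competitor in all 3 of the 16 dpc AAV8-p21 livers and in none of the 16 dpc AAV8-null livers. Dbp made up between 48.9% and 60.1% of the activator sum in the former and between 5.99% and 16.9% in the latter. In 8 dpc AAV8-p21 liver 3 it made up 56.1%.

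**Figure D2:**
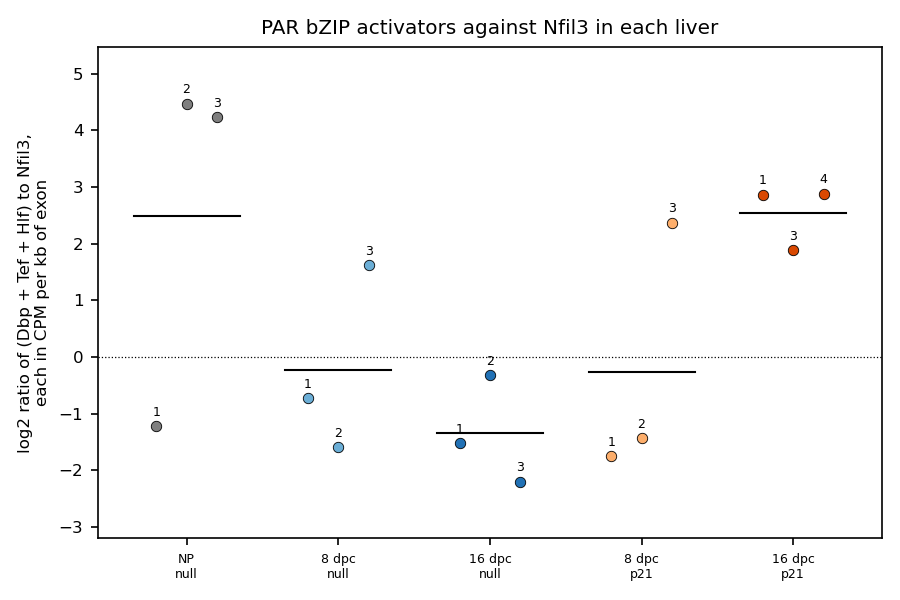
Ratio of the summed PAR bZIP activators (Dbp, Tef and Hlf) to Nfil3 in each liver, each gene in CPM per kb of exon, on a log2 axis by group, with liver numbers and the mean of the 3 log2 ratios as a bar. The 3 livers of the 16 dpc AAV8-p21 group (ratios of 3.69 to 7.38) lay above the dotted line of equal levels, and the 3 of the 16 dpc AAV8-null group (0.217 to 0.798) lay below it.

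Bhlhe40 (chr6:108660629-108666925, plus strand) was at 54.9, 98.4 and 100.5 CPM in NP, at 68.2, 61.4 and 48.8 CPM in 8 dpc AAV8-null and at 75.5, 157 and 52.8 CPM in 16 dpc AAV8-null livers. Bhlhe40 reached 63.0, 93.0 and 116 CPM in 8 dpc AAV8-p21 and 142, 228 and 77.5 CPM in 16 dpc AAV8-p21 livers. Each AAV8-p21 group overlapped with the AAV8-null group of its stage. Bhlhe41 (chr6:145858243-145865558, minus strand) was near the limit of these libraries, with 3 to 47 counts in a liver. Its values were 0.346, 2.38 and 1.61 CPM in NP, 1.46, 1.31 and 0.520 CPM in 8 dpc AAV8-null and 1.43, 1.42 and 1.33 CPM in 16 dpc AAV8-null livers. With AAV8-p21 they were 0.148, 0.457 and 1.61 CPM at 8 dpc and 2.13, 2.54 and 3.42 CPM at 16 dpc. The 16 dpc AAV8-p21 livers were above both of the groups that share their stage or their virus.

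Ciart (chr3:95878503-95882251, minus strand; also called Chrono), whose promoter window held 3 E-boxes, was almost absent from many livers. Its values were 0.485, 9.63 and 18.9 CPM in NP, 0.233, 0.238 and 1.30 CPM in 8 dpc AAV8-null, and 0, 1.25 and 0 CPM in 16 dpc AAV8-null livers. In AAV8-p21 livers they were 0.0494, 0 and 1.26 CPM at 8 dpc and 4.43, 8.43 and 3.64 CPM at 16 dpc. All 5 livers above 3 CPM were NP livers 2 and 3 and the 3 livers of the 16 dpc AAV8-p21 group. The 8 dpc AAV8-p21 liver with 61.4 CPM of Dbp was not among them.

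Rora (chr9:68653786-69388246, plus strand), which encodes the activating nuclear receptor at ROR elements, varied less. It was at 30.1, 62.7 and 67.3 CPM in NP, at 58.6, 44.8 and 68.0 CPM in 8 dpc AAV8-null and at 53.5, 84.6 and 61.2 CPM in 16 dpc AAV8-null livers. The AAV8-p21 values were 52.2, 46.6 and 28.9 CPM at 8 dpc against 33.0, 50.6 and 53.7 CPM at 16 dpc. The groups overlapped in every comparison made here. Usp2 (chr9:44067021-44095627, plus strand) resembled Dbp in many livers, but not in 8 dpc AAV8-p21 liver 3, where Dbp was at 61.4 CPM and Usp2 at 8.62 CPM. Usp2 was at 5.96, 44.0 and 58.2 CPM in NP, at 3.61, 4.47 and 15.7 CPM in 8 dpc AAV8-null and at 13.5, 13.1 and 4.18 CPM in 16 dpc AAV8-null livers. AAV8-p21 livers had 1.68, 2.74 and 8.62 CPM at 8 dpc against 64.0, 59.4 and 22.8 CPM at 16 dpc. The last group was above both the 16 dpc AAV8-null and the 8 dpc AAV8-p21 group in every liver.

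The first comparison asked what p21 in hepatocytes did to these genes late in pregnancy. At 16 dpc, mean Dbp was 84.3 ± 34.2 CPM (SD, n = 3) with AAV8-p21 and 4.81 ± 5.72 CPM with AAV8-null, Usp2 was 48.7 ± 22.6 against 10.2 ± 5.25 CPM, and Ciart 5.5 ± 2.57 against 0.417 ± 0.722 CPM. Nfil3 was 19.4 ± 10.6 against 59.1 ± 9.41 CPM. The log2 fold change was 4.12 ± 1.39 (SE) for Dbp, 3.66 ± 1.35 for Ciart, 2.25 ± 0.81 for Usp2 and -1.61 ± 0.77 for Nfil3, with 95% confidence intervals of 1.15 to 7.08, 0.76 to 6.55, 0.53 to 3.97 and -3.26 to 0.04. For these genes the quasi-likelihood test of edgeR gave adjusted p = 0.329, 0.390, 0.367 and 0.521. The sizes for Ciart and Dbp depended on 16 dpc AAV8-null liver 2, the only liver of its group with any Ciart counts (15). Without it the log2 estimate was 9.39 for Ciart, a value fitted against 2 livers at 0 counts that is no bound, and 5.79 for Dbp, and with any other liver of the 2 groups left out it was 3.09 to 3.88 for Ciart and 3.68 to 4.37 for Dbp. Tef (1.38 ± 0.71, adjusted p = 0.549), Bhlhe41 (0.95 ± 0.66, adjusted p = 0.663) and Bhlhe40 (0.65 ± 0.42, adjusted p = 0.632) also had positive estimates, and those of Hlf and Rora were 0.23 ± 0.28 and -0.54 ± 0.32 (adjusted p = 0.827 and 0.597). A gene was called at an adjusted p under 0.05 with a log2 fold change above 1 or below -1. None of the 9 members was called, against 0.0739% of all genes, and 3 (Dbp, Ciart and Usp2) had an unadjusted p under 0.05, against 9.77% of all genes. The groups did not overlap for 5 members (Dbp, Nfil3, Bhlhe41, Ciart and Usp2), against 13.7% of all genes, and for each of these the exact two-sided permutation test gave p = 0.1, the smallest that 3 livers against 3 allow. The median log2 fold change was 0.95 over the members and 0.00 over all genes tested. DESeq2 fitted to these 2 groups alone called Dbp (adjusted p = 0.00556), Nfil3 (0.00764) and Usp2 (0.000974), against 0.797% of all genes in that fit. limma voom with sample weights called Dbp (adjusted p = 0.0398), against 0.715% of all genes, and DESeq2 fitted to all 15 livers called none, against 0.616%.

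At 8 dpc no member separated the 2 viruses. Mean Dbp was 21.2 ± 34.8 CPM with AAV8-p21 and 5.55 ± 3.10 CPM with AAV8-null, and the AAV8-p21 mean rested on liver 3. The edgeR log2 fold change of Dbp was 1.92 ± 1.27 with all livers and -2.26 without that liver (adjusted p = 0.897), and it was -1.36 by limma voom (adjusted p = 0.617), so its direction was not settled. None of the 9 members was called by edgeR, against 0.0246% of all genes. None had an unadjusted p under 0.05, against 5.18% of all genes, and none was without overlap, against 10% of all genes. The lowest adjusted p of a member was 1. DESeq2 called 0 members on all 15 livers and 0 on the compared groups, against 0.168% and 0.523% of all genes, and limma voom called 0, against 0.723%. For the difference between the virus effects at 16 and 8 dpc (the interaction), edgeR called 0 members and 0% of all genes, and only Usp2 had an unadjusted p under 0.05 (log2 difference 3.15, 95% confidence interval 0.71 to 5.59, adjusted p = 1), against 3.09% of all genes. Neither DESeq2 nor limma voom called a member in the interaction. The virus effect was therefore not shown to differ between the stages for any member.

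**Figure D3:**
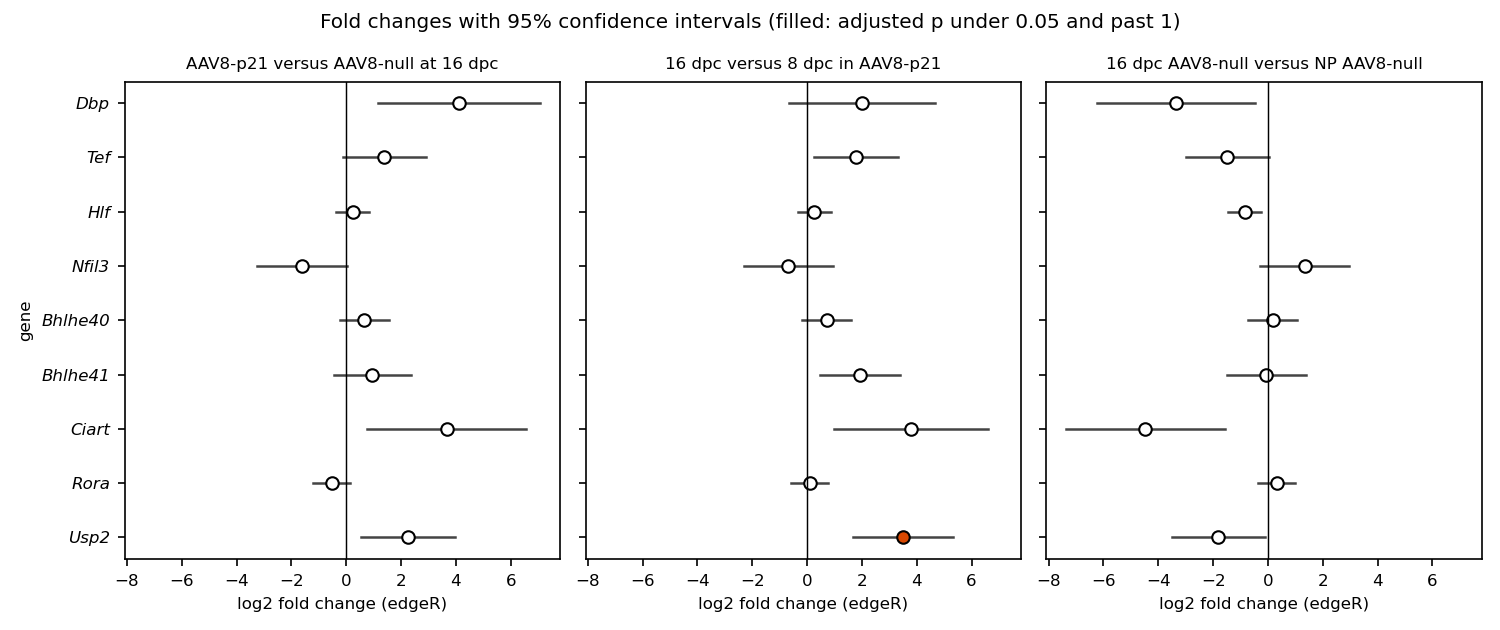
The edgeR log2 fold change of each member in 3 comparisons, with 95% confidence intervals as lines. Usp2 at 16 dpc against 8 dpc with AAV8-p21 (3.51) is the filled point that was called, and the intervals of Dbp span from 1.15 to 7.08 for AAV8-p21 against AAV8-null at 16 dpc.

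Within AAV8-p21 mice, Usp2 rose from 8 to 16 dpc, the only call among the members in any comparison of the edgeR fit. Mean Usp2 was 4.34 ± 3.74 CPM at 8 dpc and 48.7 ± 22.6 CPM at 16 dpc, a log2 fold change of 3.51 ± 0.85 (95% confidence interval 1.68 to 5.34, edgeR adjusted p = 0.0372). The call was lost when 8 dpc AAV8-p21 liver 1 or 2 or 16 dpc AAV8-p21 liver 1 or 3 was left out (adjusted p between 0.0885 and 0.175). It was kept without 8 dpc AAV8-p21 liver 3 or 16 dpc AAV8-p21 liver 4. One of 9 members called compares with 2.74% of all genes. Tef (1.80 ± 0.72, adjusted p = 0.213), Bhlhe41 (1.93 ± 0.69, adjusted p = 0.158) and Ciart (3.78 ± 1.31, adjusted p = 0.147) had an unadjusted p under 0.05, so that 4 of 9 members did, against 16.4% of all genes. The same 4 members were without overlap, against 22.9% of all genes, each with an exact permutation p = 0.1. Dbp (2.0 ± 1.24, adjusted p = 0.465) overlapped because of 8 dpc AAV8-p21 liver 3. Without that liver, edgeR called Dbp (log2 fold change 6.18, adjusted p = 0.0195) and Bhlhe41 (3.17, adjusted p = 0.0323) along with Usp2, 3 of 9 members against 3.17% of all genes, and Ciart moved from 3.78 to 7.32 (adjusted p = 0.0617), a value fitted against livers with 1 and 0 counts that gives no size. limma voom, whose sample weight for that liver was 0.384 against 1.39 and 1.94 for livers 1 and 2 of the group, called 6 members (Dbp, Tef, Bhlhe40, Bhlhe41, Ciart and Usp2), against 7.14% of all genes. DESeq2 called Usp2 on all 15 livers, against 3.45% of all genes, and Usp2 and Tef on the compared groups alone, against 4.41%. Hlf (0.26 ± 0.28), Bhlhe40 (0.72 ± 0.42), Rora (0.10 ± 0.32) and Nfil3 (-0.68 ± 0.76) were not called by edgeR.

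In AAV8-null mice no member was called between the same stages, and Usp2 had a log2 fold change of 0.36 (95% confidence interval -1.33 to 2.06). The test of the difference between the viruses is the interaction above, which no member passed. The log2 fold changes of the 9 members from 8 to 16 dpc had adjusted p between 0.368 and 0.978, and 0 members were called by edgeR, DESeq2 or limma voom, against 5.41% of all genes by edgeR, 5.82% by DESeq2 on all 15 livers and 8.45% by limma voom. None had an unadjusted p under 0.05, against 22.7% of all genes, and none was without overlap, against 25.4%. Bhlhe40 was at 59.5 ± 9.83 and 95 ± 54.6 CPM and Nfil3 at 35.9 ± 21.6 and 59.1 ± 9.41 CPM at 8 and 16 dpc.

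Pregnancy was compared with NP in AAV8-null mice, where the NP group held the liver that stood apart. At 16 dpc, Ciart (-4.47 ± 1.35, adjusted p = 0.066), Dbp (-3.37 ± 1.35, adjusted p = 0.167), Usp2 (-1.81 ± 0.80, adjusted p = 0.208) and Hlf (-0.85 ± 0.28, adjusted p = 0.0909) were lower than in NP at an unadjusted p under 0.05, which was 4 of 9 members against 21.2% of all genes. Tef (-1.48 ± 0.71, adjusted p = 0.249) and Nfil3 (1.34 ± 0.76, adjusted p = 0.338) had larger p-values, and Rora (0.32 ± 0.32), Bhlhe40 (0.17 ± 0.42) and Bhlhe41 (-0.06 ± 0.68) differed by about their SE or less. edgeR called 0 members, against 4.91% of all genes, and only Hlf was without overlap (exact permutation p = 0.1), against 24.6% of all genes. Without NP liver 1, edgeR called Nfil3 (3.31, adjusted p = 0.00767) and Ciart (-5.03, adjusted p = 0.0203), against 4.86% of all genes. Without 16 dpc AAV8-null liver 2, Ciart was at -10.20 (adjusted p = 0.062), again fitted against 2 livers at 0 counts. limma voom, which gave NP liver 1 a sample weight of 0.256 against 3.06 and 1.86 for NP livers 2 and 3, called 6 members (Dbp, Tef, Hlf, Nfil3, Ciart and Usp2), against 7.3% of all genes. DESeq2 called 0 members on all 15 livers and 0 on the compared groups, against 4.94% and 4.91% of all genes.

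At 8 dpc, Dbp (-3.17 ± 1.32, adjusted p = 0.616), Tef (-1.53 ± 0.71, adjusted p = 0.746), Ciart (-3.98 ± 1.24, adjusted p = 0.398) and Usp2 (-2.18 ± 0.80, adjusted p = 0.512) were lower than in NP at an unadjusted p under 0.05, which was 4 of 9 members against 6.6% of all genes. edgeR and DESeq2 called 0 members, against 0% of all genes by edgeR and 0.348% by DESeq2 on all 15 livers. None was without overlap, against 10.2% of all genes, since NP liver 1 lay within the range of the 8 dpc AAV8-null livers for all 4. limma voom with sample weights called Dbp, Tef, Nfil3, Ciart and Usp2, against 7.25% of all genes. Its weights were low for NP liver 1 (0.256) and for 8 dpc AAV8-null liver 3 (0.383, against 1.96 and 1.57 for livers 1 and 2 of that group). In the third comparison with NP, which differs in both stage and virus, 16 dpc AAV8-p21 livers had Dbp at 84.3 ± 34.2 CPM against 50 ± 40.9 CPM and Tef at 150.2 ± 40.9 against 161 ± 104 CPM. edgeR called 0 members, against 3.07% of all genes, and only Hlf had an unadjusted p under 0.05 (-0.62 ± 0.28, adjusted p = 0.291), against 16% of all genes. None was without overlap, against 20.2%. DESeq2 on all 15 livers called 0 members, against 3.49% of all genes, and limma voom 1, Nfil3, against 7.6%. For Nfil3 the direction differed between the fits, with a log2 fold change of -0.27 in edgeR (adjusted p = 0.918, means of 19.4 and 23.4 CPM) and 1.80 in limma voom (adjusted p = 0.0117), and edgeR gave 1.70 without NP liver 1 (adjusted p = 0.139). The comparisons with NP share the 3 NP livers.

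The core clock genes that drive the members were read in the same livers. Arntl was chosen after its values were seen, because it ran most strongly against Dbp of all genes tested. It lay at 17.2, 1.71 and 1.40 CPM in NP, at 24.0, 25.4 and 8.06 CPM in 8 dpc AAV8-null and at 23.3, 10.2 and 19.8 CPM in 16 dpc AAV8-null livers. AAV8-p21 livers had 31.4, 21.4 and 2.45 CPM of Arntl at 8 dpc against 0.511, 0.582 and 2.91 CPM at 16 dpc. NP liver 1 and 8 dpc AAV8-p21 liver 3 therefore stood apart from their groups for Arntl as they did for Dbp, in the opposite direction. Of the 14 core clock genes reported, edgeR called 0 in 7 of the 8 comparisons and 1, Fbxl21 (an F-box gene), between 16 and 8 dpc in AAV8-null (-1.82 ± 0.49, adjusted p = 0.041). Fbxl21 was near the floor, at 0.167 to 0.801 CPM in the 16 dpc AAV8-null livers. At an unadjusted p under 0.05 there were 3 of the 14 for AAV8-p21 against AAV8-null at 16 dpc, 0 at 8 dpc and 6 for 16 against 8 dpc in AAV8-p21, and 5, 2 and 2 for 16 dpc AAV8-null, 8 dpc AAV8-null and 16 dpc AAV8-p21 against NP and 2 for the interaction. The shares of all genes at that threshold were, in the same order, 9.77%, 5.18%, 16.4%, 21.2%, 6.6%, 16% and 3.09%. DESeq2 on all 15 livers called 2 core clock genes for 16 against 8 dpc in AAV8-p21, and limma voom called 6 there, 4 and 5 for 16 and 8 dpc AAV8-null against NP, 2 for 16 dpc AAV8-p21 against NP and 1 for AAV8-p21 against AAV8-null at 16 dpc. Of all genes, DESeq2 called 3.45% in its comparison and limma voom 7.14%, 7.3%, 7.25%, 7.6% and 0.715%. For the list, the median log2 fold change was 0.14 for AAV8-p21 against AAV8-null at 16 dpc, -0.18 at 8 dpc and 0.23 for 16 against 8 dpc in AAV8-p21, beside 0.00, 0.00 and -0.02 over all genes tested. The median of 0.14 joined estimates of opposite sign, so it does not give the size of change in single genes. In that comparison the groups did not overlap for 5 of the 14, against 13.7% of all genes. Arntl (-3.70), Clock (-1.04) and Csnk1e (-0.50) were lower with AAV8-p21, and Per3 (2.56) and Nr1d2 (0.96) were higher. The edgeR adjusted p of these genes lay between 0.244 and 0.534.

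**Figure D4:**
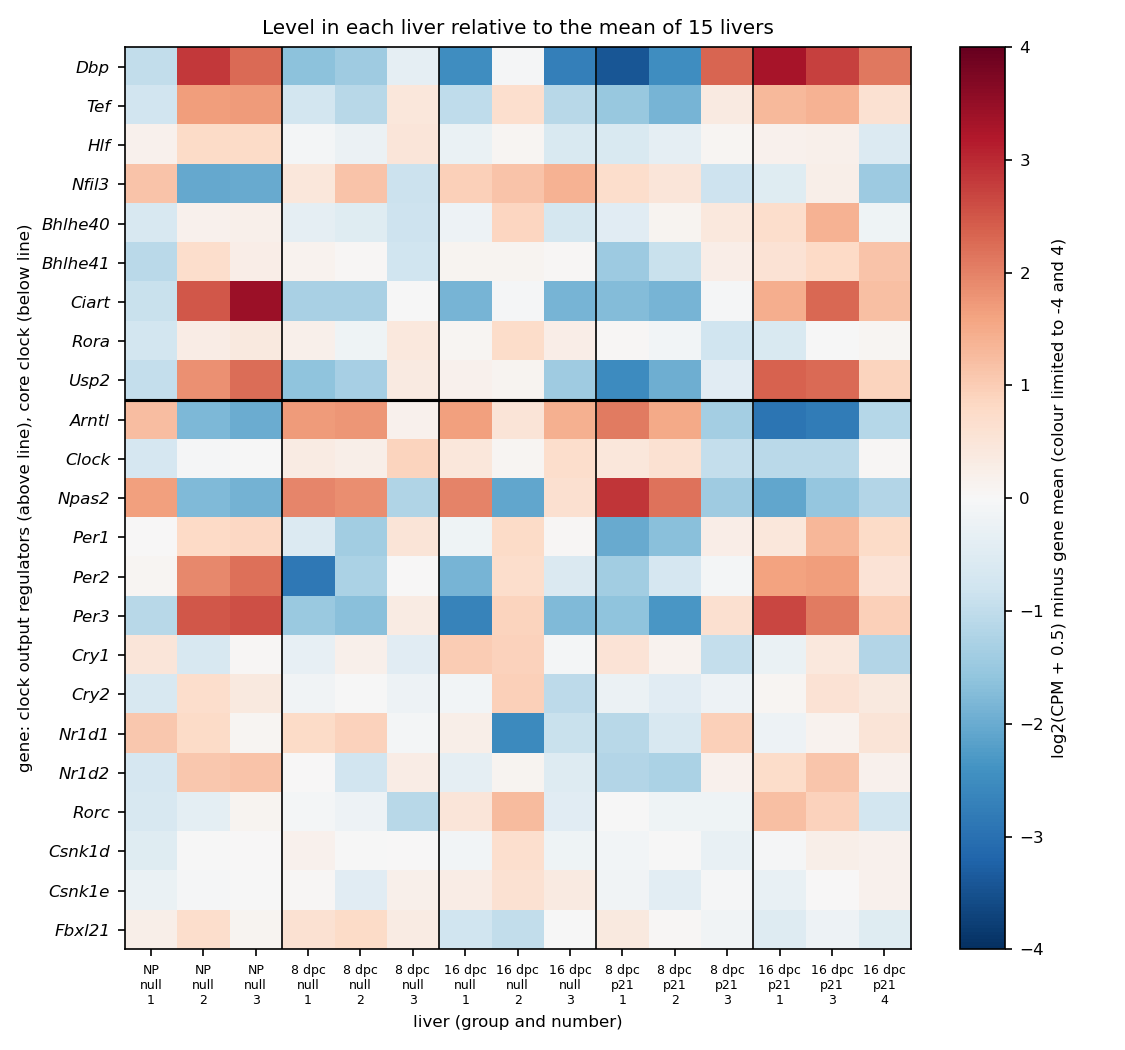
Level of the 9 members (above the line) and the 14 core clock genes (below it) in each liver, as log2(CPM + 0.5) minus the mean of the gene over the 15 livers, in colour limited to -4 and 4. In NP livers 2 and 3 and the 3 livers of the 16 dpc AAV8-p21 group, Dbp, Tef, Ciart, Usp2 and Per3 were above and Arntl and Npas2 below their means over the 15 livers.

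Of 10 liver genes known as targets of the PAR bZIP factors or as D-box genes, edgeR called 0 for AAV8-p21 against AAV8-null at 16 dpc, against 0.0739% of all genes, with 3 at an unadjusted p under 0.05, against 9.77%. In that comparison 9 of the 10 estimates were positive, with a median log2 fold change of 0.74 beside 0.00 over all genes tested. Cyp7a1, the rate-limiting enzyme of bile acid synthesis, had the lowest adjusted p of the list there (3.41 ± 0.79, adjusted p = 0.122). It fell from NP to 16 dpc in AAV8-null mice (-3.09 ± 0.78, adjusted p = 0.0295), as did Cyp2c50, a cytochrome P450 (-2.19 ± 0.54, adjusted p = 0.0269), 2 of the 10 genes against 4.91% of all genes. Cyp2c50 also fell from 8 to 16 dpc in AAV8-null mice (-1.91 ± 0.54, adjusted p = 0.0471), and Cyp2a4, a steroid hydroxylase, rose from NP to 16 dpc with AAV8-p21 (2.23 ± 0.45, adjusted p = 0.0131), each 1 of 10, against 5.41% and 3.07% of all genes. In the other comparisons 0 of the 10 were called by edgeR, with 6 at an unadjusted p under 0.05 for 16 against 8 dpc in AAV8-p21, 3 for 8 dpc AAV8-null against NP, 0 for AAV8-p21 against AAV8-null at 8 dpc and 0 for the interaction, against 16.4%, 6.6%, 5.18% and 3.09% of all genes. DESeq2 on all 15 livers called 4 of the 10 for 16 against 8 dpc in AAV8-p21 and limma voom called 6 there and 6 for 8 dpc AAV8-null against NP, and both called 1 for AAV8-p21 against AAV8-null at 16 dpc and 0 at 8 dpc and for the interaction. The shares of all genes were 3.45% for that count by DESeq2, 7.14% and 7.25% for those by limma voom, and 0.616% by DESeq2 and 0.715% by limma voom at 16 dpc. Cyp2a4 and Cyp2a5 are near-identical copies, so reads between them are uncertain.

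Among 15 other genes with a known daily rhythm in liver, edgeR called 4 between 16 and 8 dpc in AAV8-p21 mice, against 2.74% of all genes, each of the 4 higher at 16 dpc. They were Fkbp5, a glucocorticoid-induced co-chaperone (2.38 ± 0.33, adjusted p = 0.000923), Pim3, a kinase (1.83 ± 0.39, adjusted p = 0.0205), Lpin1, a phosphatidate phosphatase (2.27 ± 0.56, adjusted p = 0.0386), and Coq10b, of coenzyme Q metabolism (1.80 ± 0.46, adjusted p = 0.0452). Between 16 and 8 dpc in AAV8-null, Fkbp5 (1.16 ± 0.31) and Tfrc, the transferrin receptor (1.98 ± 0.56), rose and Cys1 (-2.44 ± 0.59) fell (adjusted p = 0.0407, 0.0467 and 0.0244), 3 of the 15 against 5.41% of all genes. From NP to 16 dpc in AAV8-null, Mt1, a metallothionein (2.81 ± 0.47), Insig2, a regulator of sterol synthesis (2.23 ± 0.58), and Tfrc (2.07 ± 0.56) rose and Cys1 (-3.04 ± 0.58) fell (adjusted p = 0.00269, 0.0329, 0.0401 and 0.00705), 4 of the 15 against 4.91% of all genes. Cys1 was near the floor, at 0.417 to 0.535 CPM, in the 16 dpc AAV8-null livers that its falls share. Mt1 also rose from NP to 16 dpc with AAV8-p21 (1.85 ± 0.45, adjusted p = 0.0339), 1 of the 15 against 3.07%. For AAV8-p21 against AAV8-null edgeR called 0 of the 15 at 16 dpc (5 at an unadjusted p under 0.05) and 0 at 8 dpc (3), and it called 0 from NP to 8 dpc (4) and 0 in the interaction (3). At an unadjusted p under 0.05 the shares of all genes were 9.77%, 5.18%, 6.6% and 3.09% in these comparisons. DESeq2 on all 15 livers called 1 of the 15 at 16 dpc and 1 at 8 dpc, and limma voom 1 and 3, for AAV8-p21 against AAV8-null, where the shares of all genes were 0.616% and 0.168% by DESeq2 and 0.715% and 0.723% by limma voom. From NP to 8 dpc these tools called 0 and 5, against 0.348% and 7.25% of all genes, and both called 0 in the interaction.

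For each member, the 5 other genes whose levels over the 15 livers were most like it were taken by Pearson's r of log2(CPM + 0.5). Those of Dbp were Per3, Pcsk4, Wipf3, Cracr2b and Efhd2 (r = 0.936 to 0.877). Per3, a core clock repressor, was also first for Ciart (0.951) and second for Tef (0.972), and Nr1d2, which encodes REV-ERB beta, was among the 5 most alike for Tef (0.964), Ciart (0.912) and Usp2 (0.918). Pcsk4, a proprotein convertase, was among the 5 for Dbp (0.927), Tef (0.978), Ciart (0.924) and Usp2 (0.931), Wipf3 for Dbp (0.889), Tef (0.946) and Ciart (0.925), and Wee1, a mitotic inhibitor kinase under clock control, for Tef (0.902) and Ciart (0.927). Arntl had the most negative r with Dbp (-0.964), and with Tef the 3 most negative were Stra6l (-0.943), Loxl4 (-0.933) and Npas2 (-0.932), given outside the rule on the 5 most alike. Nfil3 was most like Pnrc1 (0.951) and Zfp36l1 (0.929), and Hlf most like Cyp2e1 (0.898) and Nr1i3 (0.894), which encodes the nuclear receptor CAR. Bhlhe40, Bhlhe41 and Rora were most like Ubtd1 (0.885), Tbc1d30 (0.883) and Traf6 (0.975). These values describe 15 livers that share 5 groups and, for Dbp, fall into a low and a high range, so a high r may rest on the gap between the ranges.

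Within the ranges of Dbp, a split made after its values were seen, the other 8 members were set against it in 16 relations. In the 9 livers with Dbp up to 11.4 CPM, Ciart (Pearson r = 0.929, exact permutation p = 0.000248, adjusted 0.00397; Spearman rho = 0.865, p = 0.00522, adjusted 0.0418), Hlf (r = 0.901, exact permutation p = 0.00114, adjusted 0.0082; rho = 0.9, p = 0.00203, adjusted 0.0325) and Tef (r = 0.869, exact permutation p = 0.00154, adjusted 0.0082; rho = 0.8, p = 0.0138, adjusted 0.0738) moved with Dbp, Tef not by rank after adjustment. Without the 2 livers farthest from the median Dbp, r was 0.966 for Ciart, 0.941 for Hlf and 0.798 for Tef. Usp2 had r = 0.696 (exact permutation p = 0.0421, adjusted 0.168; rho = 0.633, p = 0.076, adjusted 0.304), which was 0.426 without the 2 farthest livers. Nfil3 had r = -0.277 (exact permutation p = 0.502, adjusted 0.668; rho = -0.1, p = 0.81, adjusted 0.926) within these livers. In the 6 livers with Dbp of 51.8 CPM or more, no relation passed, with exact permutation p between 0.283 and 0.917 for Pearson's r and between 0.242 and 0.919 for Spearman's rho. Nfil3 had a positive r of 0.408 there (exact permutation p = 0.4125, adjusted 0.668). The low livers came from 4 groups and the high ones from 3, and each group had too few livers for a value of its own. The permutations exchanged livers across groups, so the p-values do not set differences between groups apart from those within them.

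Markers of other cells that express some of the members, among them Nfil3, Bhlhe40, Bhlhe41 and Rora in immune cells, were summed per liver. At 16 dpc the 8 Kupffer cell and macrophage markers summed to between 192 and 423 CPM with AAV8-p21 and between 214 and 324 CPM with AAV8-null, the T and NK cell markers (5 of the 6 listed genes were in the count table) to between 1.02 and 2.81 and between 0.623 and 1.69 CPM, and the 4 B cell markers to between 1.09 and 3.32 and between 1.75 and 2.23 CPM. The 5 hepatocyte markers summed to between 268529 and 300831 CPM with AAV8-p21 and between 306463 and 430681 CPM with AAV8-null at 16 dpc, and to between 73177 and 127664 CPM in the NP and 8 dpc livers, with Alb the main part. At 16 dpc the 4 bile duct markers also did not overlap between the viruses, at 3.56 to 3.66 CPM with AAV8-p21 and 1.17 to 3.30 CPM with AAV8-null. Between 16 and 8 dpc in AAV8-p21, the comparison in which Usp2 was called, the 6 markers of sinusoidal endothelium did not overlap, at 177 to 194 CPM and 120.3 to 158 CPM, and neither did the hepatocyte markers. In both of these comparisons the other 6 lists overlapped. From NP to 16 dpc AAV8-null the hepatocyte markers did not overlap, nor did the T and NK cell markers (1.77 to 3.46 CPM in NP and 0.623 to 1.69 CPM at 16 dpc) and the 5 red blood cell markers (49.6 to 99.7 and 109 to 169 CPM). From NP to 8 dpc AAV8-null the 6 markers of stellate cells and fibroblasts did not overlap (276 to 349 and 158 to 241 CPM), and from NP to 16 dpc AAV8-p21 neither the hepatocyte nor the red blood cell markers did (the latter 124 to 167 CPM with AAV8-p21). Between 16 and 8 dpc in AAV8-null, the hepatocyte, endothelial (178 to 238 and 92.8 to 129 CPM), stellate (294 to 395 and 158 to 241 CPM) and red blood cell markers (109 to 169 and 89.3 to 102 CPM) did not overlap. Between the viruses at 8 dpc, the hepatocyte, stellate (271 to 338 CPM with AAV8-p21) and red blood cell markers (115 to 200 CPM with AAV8-p21) did not overlap. No marker of these lists was at 0 throughout a group, and the part of cell composition in the levels of the members was not tested.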

How the data were processed

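Whole-liver RNA from 15 mice (5 groups of 3) was used. Per the labels, the authors used cutadapt 1.14 for trimming and HISAT2 2.1.0 for alignment to mm10, and counted uniquely mapped reads per protein-coding gene with HTSeq 0.12.4, and the deposited table holds raw counts of 21702 genes. Columns were matched to groups by name, with 0 columns left unused.

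The 9 members and the gene lists were chosen with earlier results of these data known. Named genes are all members, list genes that were called, and for each member the 5 most alike genes, of which some are given; exceptions are stated. A core clock gene of the original list is not reported here. Counts were tested in edgeR 4.0.16 (R 4.3.3; TMM, filterByExpr with minimum count 10, quasi-likelihood test, 1 model of 15 livers, Benjamini-Hochberg over 12172 genes). DESeq2 1.42.0 and limma 3.58.1 voom were alternatives. Exact two-sided permutation tests used log2(CPM + 0.5). Exon lengths, positions and overlaps came from GENCODE M21 on GRCm38 and promoters from RefSeq GRCm38.p6. In simulated counts for AAV8-p21 against AAV8-null at 16 dpc (200 genes changed 4-fold, 12008 genes tested), edgeR recovered 83.5% with 14 other calls. The changed genes were drawn at random, and several members varied far more within groups than most genes (SD of log2(CPM + 0.5) of 1.83 for Dbp against a median of 0.322). The 83.5% therefore does not give the power for such members. Total counts were 12280709 to 17615185 per liver, and counts of the scarcest members (Ciart, 0 to 271; Bhlhe41, 3 to 47) limit their precision. Other alternatives were DESeq2 size factors, other filters, fits of the compared groups alone, Alb left out, adjusted p alone, the replicate block and each liver left out in turn. Laser-captured samples of the study were not analysed here. Figures were drawn with matplotlib 3.10.9.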

Additional observations from a re-analysis of the deposited data

How the results depend on the processing

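The counts of called members differed with the weight given to single livers and with the fit. DESeq2 on all 15 livers called as many members as edgeR in each comparison. limma voom with sample weights called 1 member for AAV8-p21 against AAV8-null at 16 dpc, 6 for 16 dpc AAV8-null against NP, 5 for 8 dpc AAV8-null against NP, 1 for 16 dpc AAV8-p21 against NP and 6 for 16 against 8 dpc in AAV8-p21, where edgeR called 0, 0, 0, 0 and 1. DESeq2 on the compared groups alone called 3 for AAV8-p21 against AAV8-null at 16 dpc and 2 for 16 against 8 dpc in AAV8-p21. Leaving out 1 liver at a time gave 0 to 2 called members for 16 dpc AAV8-null against NP (2 without NP liver 1) and 0 to 3 for 16 against 8 dpc in AAV8-p21 (3 without 8 dpc AAV8-p21 liver 3). In the other comparisons the count of members stayed at 0 under each liver left out. With the pseudocount at 1 the same number of member comparisons reached the smallest exact p.

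Signs turned for 19 estimates that edgeR did not call, mostly small ones, but the estimate of Dbp for AAV8-p21 against AAV8-null at 8 dpc (1.92) was large. By limma voom it was -1.36, and Nfil3 was 1.80 for 16 dpc AAV8-p21 against NP, Bhlhe40 -0.32 for 16 dpc AAV8-null against NP, Rora -0.22 for 8 dpc AAV8-null against NP and -0.045 for 16 against 8 dpc in AAV8-p21. With the replicate block Bhlhe41 was 0.080 for 16 dpc AAV8-null against NP. With single livers left out, the log2 estimates for AAV8-p21 against AAV8-null at 8 dpc were -2.26 to 2.49 for Dbp, -4.15 (against livers with 1 and 0 counts, so no size) to 0.71 for Ciart, -1.41 to 0.26 for Tef, -0.59 to 0.31 for Nfil3 and -1.86 to 0.079 for Usp2. For 16 dpc AAV8-p21 against NP they were -0.75 to 1.70 for Nfil3, -1.37 to 0.11 for Ciart, -0.56 to 0.21 for Tef and -0.069 to 0.96 for Usp2. For 16 dpc AAV8-null against NP they were -0.40 to 0.46 for Bhlhe40 and -0.52 to 0.51 for Bhlhe41, and for 8 dpc AAV8-null against NP -0.87 to 0.16 for Bhlhe41 and -0.18 to 0.30 for Rora. For 16 against 8 dpc they were -6.22 (fitted against 2 livers at 0 counts, so no size) to 0.85 for Ciart, -1.88 to 0.36 for Dbp and -0.78 to 0.68 for Tef in AAV8-null and -0.10 to 0.29 for Rora in AAV8-p21. In the interaction they were -0.40 to 0.61 for Bhlhe40 and -0.33 to 0.10 for Rora. The cause was not tested. Among all members and comparisons, 40 of the estimates with a liver left out and 6 under other settings changed sign. No sign changed with DESeq2 size factors or with Alb left out.

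The replicate block, possible for 4 comparisons of 12 livers whose numbers are known, called 0 members in each, as did the same livers without the block, a setting chosen after seeing the data. Between same-numbered livers of different groups, the correlation of deviations from the group means ran from -0.576 to 0.472 over 18 pairs (mean 0.00588). A pairing by number was thus not shown. Deviations from a mean of 3 livers are tied to one another within a group, so this check cannot exclude a pairing.

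Over all genes, edgeR called 9 for AAV8-p21 against AAV8-null at 16 dpc (3 to 122 under the alternatives), 3 at 8 dpc (0 to 88), 598 for 16 dpc AAV8-null against NP (338 to 888), 0 for 8 dpc AAV8-null against NP (0 to 883), 374 for 16 dpc AAV8-p21 against NP (192 to 925), 658 and 334 for 16 against 8 dpc in AAV8-null (248 to 1039) and AAV8-p21 (154 to 869), and 0 for the interaction (0 to 14). A minimum of 10 counts in every liver left Bhlhe41 and Ciart untested.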
